A study of Sus scrofa with 120 samples.

Results

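SRF, 3 actins and 6 further genes of the contractile and actin-regulating machinery were followed across all 30 groups of a pig chondrocyte RNA-seq series. The 10 genes were SRF, ACTA2, ACTB, ACTG1, TAGLN, CNN1, VCL, MYH9, TPM1 and RND1, taken by symbol from 31907 gene identifiers. The table carried the symbol of 9 of them, and MYH9 was matched through a gene name table. All 10 passed the filter on low counts in every main fit.

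Serum response factor (SRF) is a transcription factor that switches on cytoskeletal genes when its coactivators, the myocardin-related factors MRTFA and MRTFB, enter the nucleus. Monomeric actin holds these coactivators back, so that polymerisation of actin frees them, and many actin and contractile genes are SRF targets. Chondrocytes held round in a gel keep little of this machinery in bundles, whereas chondrocytes spread on plastic form stress fibres and lose cartilage gene expression.

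The cells were primary chondrocytes of pig femoral cartilage, labelled WT/NT unless transfected, cast in 2% agarose and harvested 3 h or 9 h after a stimulus began, with 4 libraries in every group. In the TRPV4 experiment (48 libraries) the groups were DMSO vehicle left free swelling, GSK101 (1 nM, agonist of the calcium channel TRPV4), GSK205 (TRPV4 antagonist, written as 10 mM in the labels' protocol), cyclic compressive loading at 10% deformation and 1 Hz for 3 h, loading with GSK205, and IL-1 (1 ng/mL, an inflammatory cytokine). In the PIEZO1 experiment (72 libraries) cells were non-transfected (NT), transfected with a non-targeting siRNA (siNTC) or with siRNA against the channel PIEZO1 (siPIEZO1). Each of these was left in DMSO vehicle, compressed once to 80% deformation, or given Yoda1 (PIEZO1 agonist, written as 5 mM). Whether replicate libraries stem from different animals is not stated, and p-values cover the spread among these libraries, which may be technical.

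Totals ran from 20651530 to 80223797 counts per library in the TRPV4 experiment and from 36807992 to 66240251 in the PIEZO1 experiment. The 2 experiments used different library kits, and levels are compared only within an experiment. Chondrocyte markers were present in all 120 libraries (ACAN at 1112 CPM or more, COL2A1 at 3474 CPM or more, where CPM is each count scaled to the library total), although MATN3 reached only 0.798 to 7.53 CPM in the PIEZO1 experiment. Of 8 smooth muscle and pericyte markers, MYH11 and DES stayed at or below 4.07 and 0.808 CPM, and RGS5, NOTCH3, MCAM and LMOD1 at or below 23.3 CPM. SYNM was at 19.9 to 47.4 CPM in the TRPV4 experiment and at or below 2.94 CPM in the PIEZO1 experiment. CSPG4, a proteoglycan gene that chondrocytes also express, was at 1355 to 4906 CPM and 82.5 to 490 CPM, so it made up most of that list's sum. In bulk RNA, fewer cells of a type and less RNA per cell cannot be told apart, and this holds for every result given here.

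The contractile set was uneven in how well it could be measured. CNN1 (calponin 1, a smooth muscle actin-binding protein) had 0 counts in 6 of 48 and 4 of 72 libraries and never exceeded 0.687 CPM. ACTA2 (smooth muscle alpha-actin) lay between 0.397 and 4.30 CPM in the TRPV4 experiment and between 0.442 and 14.8 CPM in the PIEZO1 experiment. SRF itself had 397 to 2288 counts per library in the TRPV4 experiment and only 9 to 117 in the PIEZO1 experiment. ACTB and ACTG1, the cytoplasmic beta- and gamma-actins, are nearly identical in sequence to each other and close to ACTA2, so reads could be shared among them and their separate values are uncertain.

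GSK101 raised most of the set, and more so at 9 h. With edgeR's quasi-likelihood test and Benjamini-Hochberg adjustment over all genes, 7 of the 10 were called (adjusted p under 0.05) at 3 h and 8 at 9 h, all of them higher. Over all genes tested, 40% were called at 3 h and 62.3% at 9 h. The median log2 fold change of the 10 genes was 0.65 at 3 h and 0.76 at 9 h, against 0.01 and -0.07 over all genes.

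VCL, which encodes vinculin, the adaptor that ties actin filaments to cell adhesions (Sscrofa11.1 chromosome 14, 76700143 to 76811875), gave the clearest course. At 3 h its 4 DMSO libraries were at 41.9, 43.4, 45 and 37.2 CPM and the GSK101 libraries at 84.0, 79.8, 86.0 and 76.6 CPM. The 9 h values were 54.6, 49.7, 49.3 and 50.6 CPM in DMSO and 297, 321, 310 and 319 CPM in GSK101. All GSK101 libraries stood above all DMSO libraries at both times. The log2 fold change was 0.96 ± 0.07 (SE) at 3 h and 2.61 ± 0.05 at 9 h, a 6.11-fold rise, with adjusted p = 1.1e-12 and 6.97e-28 by edgeR. The rise itself was larger at 9 h than at 3 h by 1.69 ± 0.09 on the log2 scale (adjusted p = 3e-22).

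Both cytoplasmic actins rose at 3 h and further at 9 h. ACTG1 (chromosome 12, 1320355 to 1323219) moved from 1135, 1131, 1136 and 1324 CPM in DMSO to 2585, 2696, 2777 and 2611 CPM in GSK101 at 3 h. The 9 h levels were 1383, 1277, 1302 and 1234 CPM in DMSO and 3724, 3289, 3370 and 3540 CPM in GSK101. The groups did not overlap at either time, and the log2 fold changes were 1.17 ± 0.06 and 1.42 ± 0.05 (adjusted p = 7.35e-17 and 1.48e-21). ACTB (chromosome 3, 4084275 to 4090383) rose by 0.75 ± 0.08 and 0.98 ± 0.07. The later rise exceeded the earlier one by 0.29 ± 0.08 in ACTG1 (adjusted p = 0.00109) and by 0.28 ± 0.11 in ACTB (adjusted p = 0.0353). The ACTB difference rested on single libraries: it was not called in 8 of 16 fits that each left out one library (GSK101 3 h replicates 1 and 4, DMSO 3 h replicates 2 and 4, GSK101 9 h replicate 1, DMSO 9 h replicates 2, 3 and 4), with adjusted p from 0.0601 to 0.163. Without GSK101 9 h replicate 1 it was 0.20, and without DMSO 3 h replicate 4 it was 0.19.

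SRF (chromosome 7, 38213300 to 38223686) rose to a similar extent at both times. Its DMSO libraries were at 20.0, 19.1, 18.6 and 24.6 CPM at 3 h and its GSK101 libraries at 31.3, 29.96, 31.5 and 28.9 CPM. At 9 h the values were 25.4, 25.6, 22.6 and 25.8 CPM against 38.8, 34.0, 34.5 and 31.9 CPM. No library of one group reached the other, and the log2 fold changes were 0.56 ± 0.09 and 0.48 ± 0.09 (adjusted p = 7.29e-06 and 1.29e-05). The difference between the 2 times was -0.03 ± 0.13 and was not called (adjusted p = 0.872).

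RND1, a small GTPase that loosens contractile actin (chromosome 5, 14914652 to 14922032), had a rise that was smaller at 9 h than at 3 h by the test between times. Its DMSO libraries were at 7.30, 12.4, 10.9 and 10.4 CPM at 3 h, and GSK101 brought it to 84.6, 72.1, 74.3 and 78.5 CPM. At 9 h the values were 13.3, 10.97, 15.5 and 9.75 CPM against 43.7, 37.7, 38.4 and 38.0 CPM. RND1 was thus 7.52-fold higher at 3 h (log2 2.91 ± 0.12) and 3.21-fold higher at 9 h (log2 1.68 ± 0.10), and the fall between times was called (-1.18 ± 0.17, adjusted p = 3.52e-08).

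TAGLN (transgelin, an actin-crosslinking protein) separated the times most plainly after VCL and RND1. At 3 h its 4 DMSO libraries, from 12.5 to 17.2 CPM, overlapped the 4 GSK101 libraries, from 16.6 to 17.5 CPM, and the log2 difference of 0.19 ± 0.09 was not called (adjusted p = 0.0756). It was called without DMSO replicate 2 (adjusted p = 0.0185). At 9 h GSK101 held it at 30.5, 28.2, 27.8 and 35.4 CPM against 19.7, 16.4, 17.4 and 17.1 CPM in DMSO, a log2 rise of 0.79 ± 0.08. The change between times was 0.64 ± 0.12 (adjusted p = 1.21e-05).

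TPM1 (tropomyosin 1, which lines actin filaments) and MYH9 (non-muscle myosin heavy chain IIA, the motor of contraction) also rose more at 9 h. TPM1 rose by 0.22 ± 0.06 at 3 h and 0.49 ± 0.05 at 9 h, and the difference was 0.32 ± 0.07 (adjusted p = 0.000297). MYH9 rose by 0.27 ± 0.09 and 0.73 ± 0.06, and the difference was 0.51 ± 0.11 (adjusted p = 0.00021). The MYH9 groups overlapped at 3 h, and that call was lost without GSK101 replicate 1 or 3 or DMSO replicate 2 or 4 (adjusted p 0.051 to 0.0767). ACTA2 (log2 0.19 ± 0.31 and 0.23 ± 0.29) and CNN1 (0.77 ± 0.69 and 0.71 ± 0.80) were not called. Between 3 h and 9 h the GSK101 effect changed in 7 of the 10 genes, and in 45.8% of all genes.

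The GSK101 libraries at 3 h were sequenced deeper than their DMSO controls (62677053 to 80223797 against 20651530 to 29904509 counts), with less small RNA (2.78 to 4.34% against 6.46 to 13.2% of counts). Mitochondrial rRNA and tRNA took 0.808 to 3.04% of counts in GSK101 at 3 h against 0.334 to 0.868% in DMSO. At 9 h the depths overlapped (22210499 to 31454500 against 24190041 to 35352928). Small RNA was then at 6.92 to 13.2% in GSK101 against 5.54 to 8.31% in DMSO. With protein-coding genes alone the 7 genes called at 3 h were also called at that time. The part of depth, small RNA and mitochondrial RNA in the GSK101 results was not tested.

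Markers of other cell types differed between these groups as well, at both times. The fibroblast and synovium markers (COL1A1, COL1A2, COL3A1, THY1, PRG4 and PDGFRA, all 6 detected) summed to 656 to 697 CPM in GSK101 and 668 to 701 CPM in DMSO at 3 h, and to 629 to 649 CPM against 537 to 591 CPM at 9 h. The 8 smooth muscle and pericyte markers summed to 4221 to 4960 CPM against 3557 to 4483 CPM at 3 h, and at 9 h to 2400 to 2655 CPM in GSK101, below all DMSO libraries (3300 to 3526 CPM). The 10 chondrocyte markers summed to 114607 to 125992 CPM against 88242 to 105316 CPM at 3 h and to 70096 to 72958 CPM against 81407 to 85974 CPM at 9 h, so they were higher at the first time and lower at the second. The 6 endothelial markers were higher in GSK101 at a low level, at 8.10 to 9.41 against 7.12 to 7.31 CPM at 3 h. At 9 h they summed to 10.5 to 11.5 CPM against 6.43 to 9.17 CPM. The 6 leukocyte markers summed to 23.6 to 27.0 CPM in GSK101 against 27.7 to 34.2 CPM at 3 h, and overlapped at 9 h (24.7 to 32.3 against 27.6 to 35.5 CPM). The part of these markers in the GSK101 results was not tested.

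**Figure D1:**
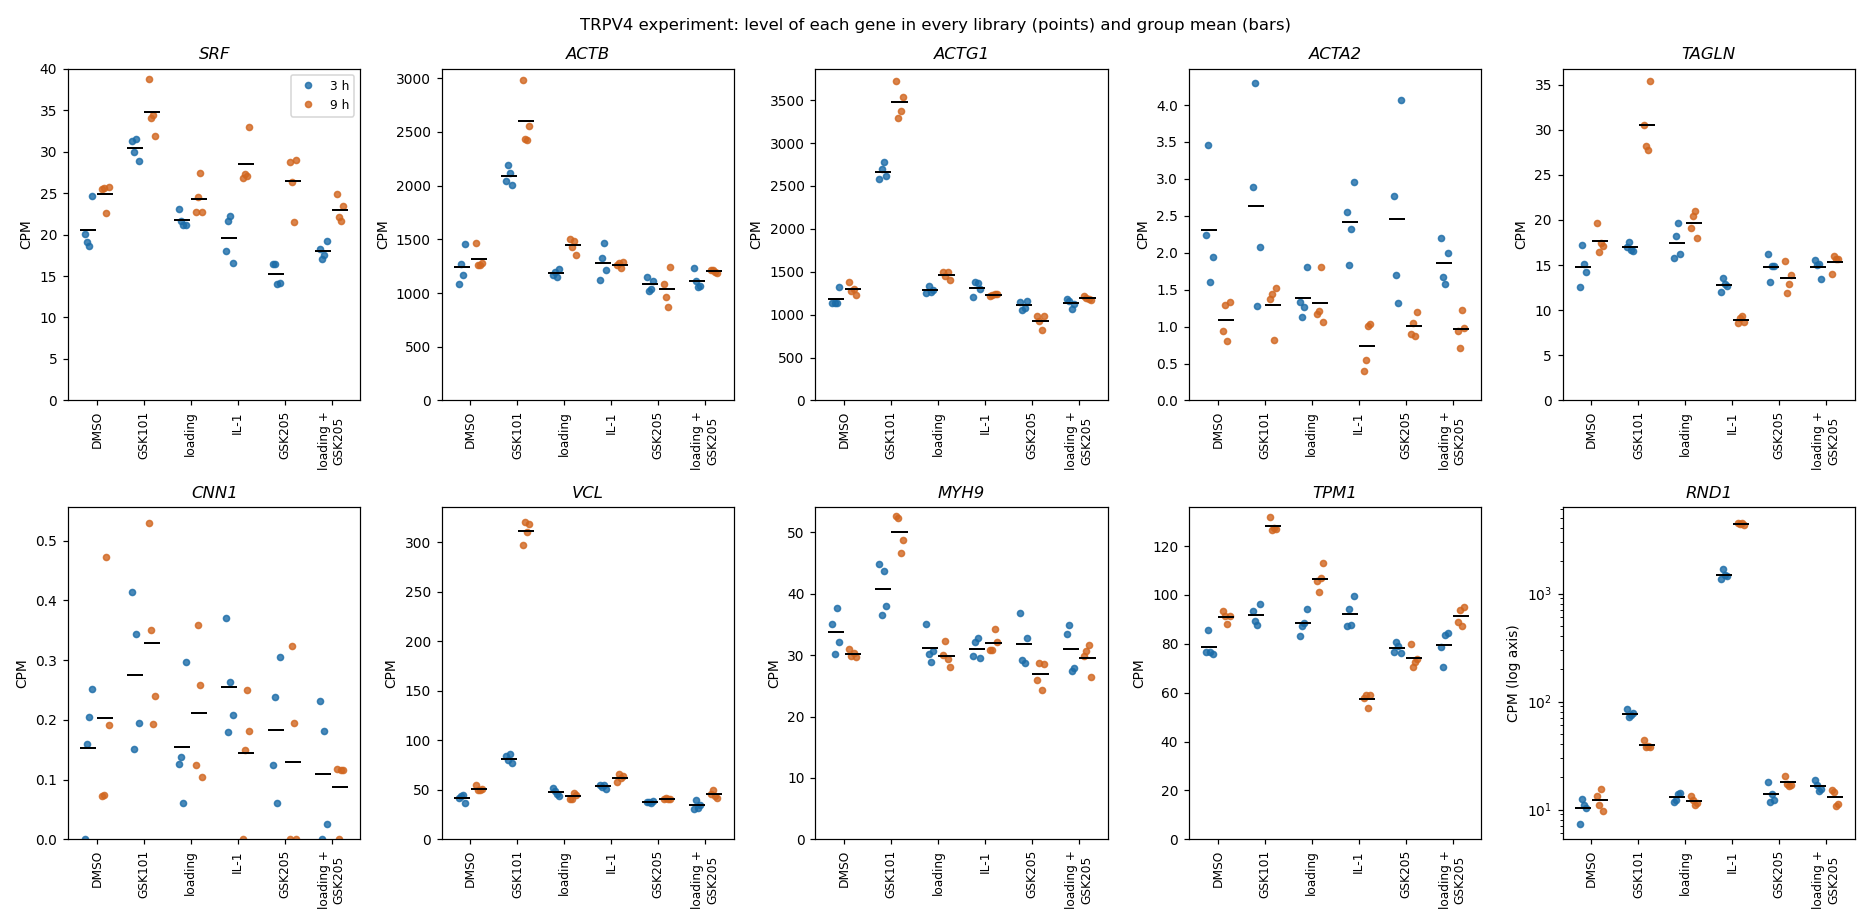
Level of each gene (CPM, scaled separately at 3 h and 9 h; RND1 on a log axis) in every library of the TRPV4 experiment by condition, with points for libraries and bars for group means of 4. VCL in GSK101 at 9 h (297 to 321 CPM) and RND1 in IL-1 (1366 to 4540 CPM) stand far from every other group.

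A wider list of 59 SRF and actin pathway genes, of which 58 were in the table, was read beside the 10. Under GSK101, 25 of 55 tested genes of that list were higher and 3 lower at 3 h, with a median log2 fold change of 0.20. At 9 h 36 of 54 were higher and 7 lower, with a median of 0.39. Over all genes the called shares were 40% and 62.3%. At 3 h the largest called changes were RHOB (2.65 ± 0.07) and RND3 (2.09 ± 0.08), both small GTPases, and ITGA5 (0.96 ± 0.07), the integrin subunit that receives fibronectin.

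At 9 h the leaders were ITGA5 (2.34 ± 0.06), RND3 (2.30 ± 0.07) and PXN (1.63 ± 0.08), which encodes the adhesion scaffold paxillin. Of the adhesion and crosslinking genes, 8 of 12 were higher and 1 lower at 3 h, and 9 were higher and 1 lower at 9 h, when their median was 0.70. Of the actin turnover genes, 4 of 11 were higher at 3 h and 8 at 9 h, with 1 lower at each time. Beside the 40% and 62.3% of all genes called, the 5 of 11 called at 3 h lie near the background. RHOB was among those whose GSK101 effect changed most with time, at -2.02 ± 0.09, while RHOC rose by 1.67 ± 0.07 and the SRF cofactor gene FHL2 by 1.62 ± 0.22.

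IL-1 acted on RND1 above all. Its 4 DMSO libraries at 3 h, given before, lay at 7.30 to 12.4 CPM, and IL-1 took RND1 to 1366, 1680, 1475 and 1463 CPM. At 9 h IL-1 held it at 4471, 4375, 4540 and 4290 CPM against 9.75 to 15.5 CPM in DMSO. The groups were far apart at both times, with log2 fold changes of 7.18 ± 0.14 (145.3-fold) and 8.49 ± 0.12 (359.6-fold), adjusted p = 6.11e-28 and 1.31e-32. The rise was larger at 9 h by 1.34 ± 0.16 (adjusted p = 1.09e-09).

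The contractile genes moved little at 3 h and in both directions at 9 h. At 3 h 4 of the 10 were called, all higher, beside 32.2% of all genes, and at 9 h 5 were called (3 higher, 2 lower) beside 65.1% of all genes. VCL was higher at both times (0.36 ± 0.07 and 0.29 ± 0.05), and its 3 h values of 54.8, 53.0, 55.1 and 51.2 CPM lay above every DMSO library. TPM1 crossed over: it was higher at 3 h (0.23 ± 0.06, adjusted p = 0.0029) and lower at 9 h (-0.67 ± 0.05, adjusted p = 2.16e-14), with 58.0, 58.9, 53.6 and 59.0 CPM against 93.6, 91.5, 87.9 and 91.6 CPM at 9 h. All 4 IL-1 libraries were below all 4 DMSO libraries at that time.

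TAGLN fell with IL-1 at 9 h. Its libraries were at 8.60, 9.12, 9.38 and 8.72 CPM in IL-1 and at 19.7, 16.4, 17.4 and 17.1 CPM in DMSO, with no overlap, and the log2 fold change was -0.98 ± 0.09 (adjusted p = 1.21e-11). At 3 h it was -0.21 ± 0.09 and not called (adjusted p = 0.0803, and 0.0216 without DMSO replicate 1). Between the times, 4 of the 10 IL-1 effects changed, beside 38.8% of all genes: RND1, TAGLN (-0.73 ± 0.12), TPM1 (-0.86 ± 0.07) and ACTG1 (-0.19 ± 0.08, adjusted p = 0.0418). The ACTG1 difference was lost in 11 of 16 fits without one library (adjusted p 0.053 to 0.103). SRF, at 0.31 ± 0.13 between times, narrowly missed the threshold (adjusted p = 0.0556) and passed it in 7 of those 16 fits and in DESeq2 (adjusted p = 0.0273), where ACTG1 did not pass (adjusted p = 0.0559).

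2 weaker IL-1 calls depended on single libraries. ACTG1 at 3 h (0.15 ± 0.06, adjusted p = 0.0384) was lost without any of DMSO replicates 1, 2 and 3 and IL-1 replicates 2, 3 and 4 (adjusted p 0.0587 to 0.125). SRF at 9 h (0.20 ± 0.09, adjusted p = 0.0389) was lost without IL-1 replicate 4, which stood at 32.9 CPM against 26.9 to 27.3 CPM in the others (then 0.12, adjusted p = 0.231), and without DMSO replicate 1 or 3 (adjusted p = 0.0512 and 0.135). In the same IL-1 libraries at 9 h, the summed fibroblast and synovium markers were at 1150 to 1296 CPM against 537 to 591 CPM in DMSO, with all 6 markers above 0. The smooth muscle and pericyte sum, most of it CSPG4, was at 1387 to 1590 CPM against 3300 to 3526 CPM. At 3 h that sum was at 2885 to 3301 CPM against 3557 to 4483 CPM. MYH11, also in that list, was higher with IL-1 at 9 h (log2 2.21 ± 0.26). The 6 leukocyte markers summed to 89.0 to 98.3 CPM against 27.6 to 35.5 CPM at 9 h, while PTPRC, which marks all leukocytes, was at 0 in 19 of the 48 libraries and never exceeded 0.333 CPM. The part of these markers in the TAGLN and TPM1 results was not tested. ACTA2 at 9 h, at -0.56 on the log2 scale, was called only without IL-1 replicate 4 (-0.78, adjusted p = 0.0386).

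In the wider list IL-1 gave 16 higher and 8 lower of 55 at 3 h (median 0.04), and 23 higher and 19 lower of 54 at 9 h (median 0.06), where 32.2% and 65.1% of all genes were called. RND3 led at both times (2.89 ± 0.09 and 3.46 ± 0.07). TAGLN2, a transgelin of non-muscle cells, rose by 1.26 ± 0.08 and 1.90 ± 0.06, in the opposite direction to TAGLN at 9 h. ACTN1, the actin crosslinker alpha-actinin 1, rose by 1.11 ± 0.06 at 3 h. MYH11, smooth muscle myosin, rose by 2.21 ± 0.26 at 9 h from a level that never exceeded 4.07 CPM. RHOB (1.97 ± 0.09), LIMK1 (-1.34 ± 0.16) and ELK3 (1.00 ± 0.10) changed most between the times.

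**Figure D2:**
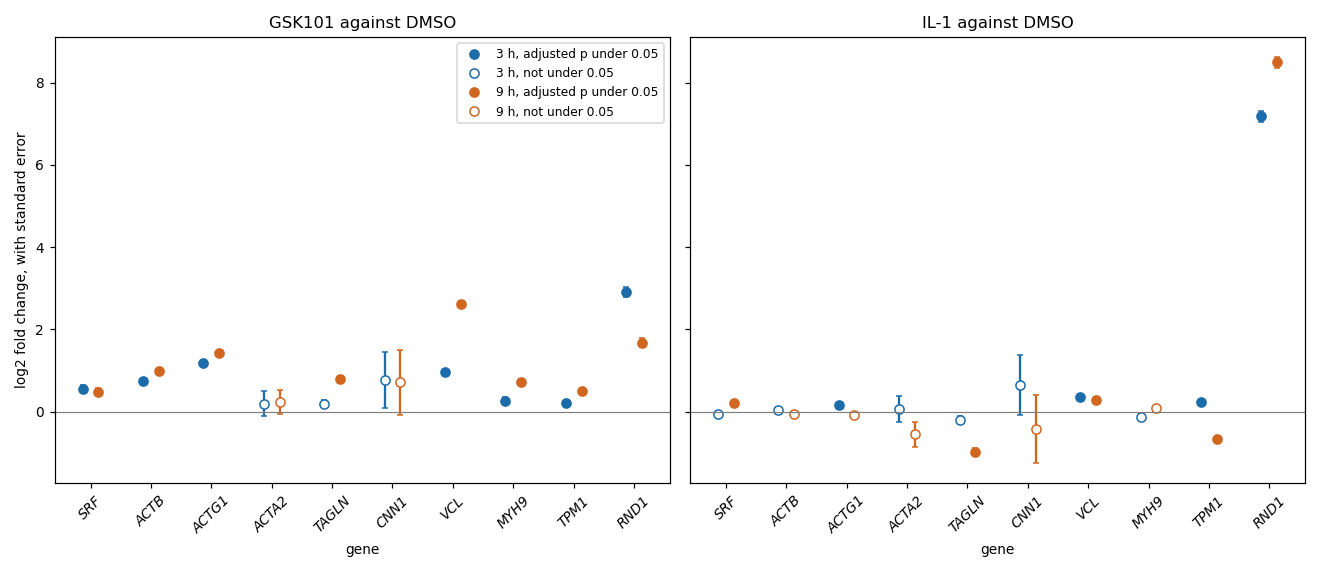
Log2 fold change (vertical axis, with standard error, n = 4 libraries against 4) of the 10 genes under GSK101 (left) and IL-1 (right) against DMSO at 3 h and 9 h, with filled points for adjusted p under 0.05 by edgeR. Under GSK101, VCL rises from 0.96 to 2.61 while RND1 falls from 2.91 to 1.68, and under IL-1 RND1 stands at 7.18 and 8.49 with TAGLN and TPM1 below 0 at 9 h.

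Cyclic loading moved the set much less than GSK101. At 3 h none of the 10 was called by edgeR (10.2% of all genes were), although 6 had an unadjusted p under 0.05, and DESeq2 also called 0. RND1 was at 11.7, 12.3, 13.8 and 14.4 CPM under loading and its log2 difference was 0.34 ± 0.12 (adjusted p = 0.0756). VCL was at 0.18 ± 0.07 (adjusted p = 0.0946). Without DMSO replicate 2, TAGLN, TPM1 and RND1 were called; TAGLN and TPM1 were also called without loading replicate 1, and ACTG1 without DMSO replicate 4 (adjusted p 0.0254 to 0.0481 over these).

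At 9 h loading raised ACTG1 and TPM1 and lowered VCL, 3 calls beside 23.7% of all genes. VCL was at 41.1, 40.6, 46.7 and 45.1 CPM under loading and at 49.3 to 54.6 CPM in DMSO, all lower, with a log2 fold change of -0.24 ± 0.05 (adjusted p = 0.0013). TPM1 was at 106, 101.2, 107 and 113 CPM against 87.9 to 93.6 CPM, all higher (0.23 ± 0.04, adjusted p = 0.000342). ACTG1 rose by 0.17 ± 0.05 (adjusted p = 0.0131), a call lost without DMSO replicate 4 (0.15, adjusted p = 0.0534). The smooth muscle and pericyte sum under loading was at 2474 to 2905 CPM against 3300 to 3526 CPM in DMSO, and its part in these calls was not tested. Only the VCL effect of loading differed between 9 h and 3 h, by -0.39 ± 0.09 (adjusted p = 0.00273), where 10.1% of all genes did. In the wider list loading gave 9 higher and 0 lower of 55 at 3 h, led by RND3 (0.60 ± 0.09), PXN (0.48 ± 0.08) and ITGA5 (0.48 ± 0.07). At 9 h it gave 9 higher and 10 lower of 54, led by TAGLN2 (0.53 ± 0.06), the adhesion gene ZYX (-0.43 ± 0.09) and ELK4 (-0.34 ± 0.07), whose product binds DNA with SRF. PXN (-0.69 ± 0.11), RND3 (-0.60 ± 0.11) and ELK3 (-0.58 ± 0.10) had the largest called differences between the times.

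The antagonist GSK205 on its own lowered actin genes, with more calls at 9 h than at 3 h. At 3 h 3 of the 10 were called (27.1% of all genes), and at 9 h 6 (21.2% of all genes). ACTG1 at 9 h was at 987, 925, 818 and 990 CPM with GSK205 against 1234 to 1383 CPM in DMSO, a log2 fold change of -0.48 ± 0.05 (adjusted p = 1.98e-08). VCL was at 40.4, 41.8, 41.1 and 40.3 CPM against 49.3 to 54.6 CPM (-0.32 ± 0.05, adjusted p = 5.8e-05). ACTB (-0.34 ± 0.07), TAGLN (-0.38 ± 0.09) and TPM1 (-0.30 ± 0.05) fell as well. In these 5 called genes every GSK205 library lay below every DMSO library, and how many of all genes separated so was not counted. The smooth muscle and pericyte sum (2580 to 3243 against 3300 to 3526 CPM) and the chondrocyte sum (68634 to 78080 against 81407 to 85974 CPM) were below every DMSO library at 9 h too. Their part in the lower actin genes was not tested.

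RND1 went the other way under GSK205 at both times. Its libraries were at 17.8, 11.7, 13.8 and 12.2 CPM at 3 h and at 20.6, 17.3, 16.4 and 16.9 CPM at 9 h, against 9.75 to 15.5 CPM in DMSO at 9 h. The groups separated at 9 h and overlapped at 3 h, with log2 fold changes of 0.43 ± 0.12 (adjusted p = 0.0084) and 0.53 ± 0.11 (adjusted p = 0.000336). The 3 h call was lost without GSK205 replicate 1 (0.29, adjusted p = 0.0769).

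SRF fell under GSK205 at 3 h only by the test, from 18.6 to 24.6 CPM in DMSO to 16.5, 16.5, 14 and 14.2 CPM (-0.43 ± 0.09, adjusted p = 0.000662), and at 9 h it stood at 0.09 ± 0.09 (adjusted p = 0.534). Whether its GSK205 effect differed between times was not tested. ACTB at 3 h (-0.21 ± 0.08, adjusted p = 0.0424) was lost without any of GSK205 replicates 2, 3 and 4 and DMSO replicates 2 and 4, and was -0.12 (adjusted p = 0.245) without DMSO replicate 4. With protein-coding genes alone, ACTG1 and VCL were called lower at 3 h too, 5 genes in all, and VCL also without DMSO replicate 4 (adjusted p = 0.0353). MYH9 at 9 h was called lower without GSK205 replicate 2 or 4 (adjusted p 0.0383 to 0.0457). The wider list had 14 higher and 5 lower of 55 at 3 h, led by SMTN (-0.79 ± 0.07), which encodes smoothelin, ELK3 (0.65 ± 0.07) and the actin-monomer recycler CAP1 (0.55 ± 0.13). It had 14 higher and 6 lower of 54 at 9 h, led by MYLK (-0.82 ± 0.23), the myosin light chain kinase gene, PDLIM7 (-0.41 ± 0.07) and SMTN (-0.39 ± 0.08). In these tests GSK101, loading, IL-1 and GSK205 share the DMSO libraries as control.

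Adding GSK205 to loading, against loading alone, again gave lower actin genes. At 3 h 4 of the 10 were called (15.3% of all genes): VCL, SRF and ACTG1 lower and RND1 higher. VCL was at 31.0, 39.8, 31.5 and 35.2 CPM against 51.6, 48.5, 45.6 and 44.0 CPM with loading alone, without overlap (-0.47 ± 0.07, adjusted p = 1.87e-05). The other 3 were near the threshold: SRF (-0.27 ± 0.09, adjusted p = 0.0346), ACTG1 (-0.18 ± 0.06, adjusted p = 0.0244) and RND1 (0.34 ± 0.11, adjusted p = 0.0434) were lost without 5, 3 and 6 of the 8 libraries in turn, and without loading replicate 2 VCL alone stayed called. RND1 was also not called by DESeq2 (adjusted p = 0.064). TAGLN was called lower by DESeq2 (adjusted p = 0.0435) and without loading replicate 1 or 4 (adjusted p 0.0471 to 0.0492).

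At 9 h 4 were called, all lower, where 4.10% of all genes were. ACTG1 was at 1212, 1195, 1179 and 1173 CPM against 1493, 1456, 1494 and 1402 CPM (-0.30 ± 0.05, adjusted p = 0.000612). ACTB (-0.26 ± 0.07), TAGLN (-0.35 ± 0.08) and TPM1 (-0.22 ± 0.04) fell as well. In these 4 called genes the groups were apart, and how many of all genes separated so was not counted. ACTB was lost in 7 of 8 fits without one library (adjusted p 0.0625 to 0.112), and TAGLN without replicate 1 of loading with GSK205 (adjusted p = 0.0605), which left 2 calls. VCL was not called (0.07 ± 0.05, adjusted p = 0.543).

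The interaction asks whether loading acted differently with GSK205 present. At 3 h none of the 10 was called by edgeR (2.25% of all genes were), 1 had an unadjusted p under 0.05 and DESeq2 called 0. That gene was VCL (-0.32 ± 0.10, adjusted p = 0.0831), called without replicate 2 of loading with GSK205 (adjusted p = 0.0273). At 9 h VCL was the single call (4.64% of all genes), at 0.39 ± 0.08 with adjusted p = 0.00202: loading lowered it against DMSO, while with GSK205 it was at 46.2, 49.8, 44.2 and 41.6 CPM under loading and 40.3 to 41.8 CPM without. RND1 at -0.43 ± 0.15 was not called at 9 h (adjusted p = 0.0906), but was without DMSO replicate 3 or replicate 1 of loading with GSK205 (adjusted p = 0.021 and 0.0438). In the wider list the interaction was called for 1 higher and 5 lower of 55 at 3 h and 3 higher and 2 lower of 54 at 9 h. ELK3 (-0.80 ± 0.10), PXN (-0.58 ± 0.12) and RHOB (0.46 ± 0.09) led at 3 h, and the genes called at 9 h included TAGLN2 (-0.38 ± 0.09) and ELK4 (0.35 ± 0.10). Against loading alone, the list gave 6 higher and 7 lower of 55 at 3 h, led by PXN (-0.82 ± 0.08), ZYX (-0.77 ± 0.11) and RHOB (0.64 ± 0.06). At 9 h it gave 5 higher and 2 lower of 54, among them ARHGAP35 (0.34 ± 0.04) and the actin-monomer binder TMSB4X (-0.27 ± 0.05).

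The PIEZO1 experiment rests on a pool of 3 siRNAs, shown here because the lower ACTA2, TAGLN and TPM1 levels described next were measured in cells that received them. They are written 5′ to 3′ in lower case with nothing singled out, as designed oligos given in the labels, which do not say which strand is meant.
siPIEZO1a: cagcgagaucucgcacuccauc
siPIEZO1b: uacgaccugcugcagcuccug
siPIEZO1c: acccgcuggccaugcaguucuu

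PIEZO1 itself was only weakly lower in the libraries labelled siPIEZO1. In vehicle at 3 h PIEZO1 was at 4.22, 5.01, 4.68 and 5.18 CPM against 3.71, 5.10, 6.99 and 6.73 CPM in siNTC (log2 -0.24 ± 0.19, adjusted p = 0.576). By 9 h it stood at 2.24, 4.25, 4.52 and 2.80 CPM against 6.48, 6.36, 5.31 and 3.80 CPM (-0.66 ± 0.23, adjusted p = 0.0619). The groups overlapped at both times, and neither difference was called.

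In the libraries labelled siPIEZO1, 3 of the 10 genes were lower than in siNTC at both times, where 5.07% (3 h) and 10.8% (9 h) of all genes were called. ACTA2 (chromosome 14, 100868145 to 100886732) was at 0.676, 0.614, 0.442 and 0.679 CPM at 3 h against 1.83, 2.94, 2.13 and 4.16 CPM in siNTC. The 9 h libraries were at 0.927, 1.68, 1.89 and 1.91 CPM against 5.22, 3.93, 3.94 and 8.13 CPM. Within each time every library labelled siPIEZO1 was below every siNTC library. ACTA2 was 4.58-fold lower at 3 h (log2 -2.20 ± 0.47, adjusted p = 0.00312) and 3.31-fold lower at 9 h (log2 -1.73 ± 0.43, adjusted p = 0.00626).

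TAGLN (chromosome 9, 44561756 to 44567385) was lower with siNTC than in NT cells and lower again with siPIEZO1. In vehicle at 3 h it was at 150, 141, 150 and 127 CPM in NT, 85.2, 89.9, 66.0 and 61.3 CPM in siNTC and 63.6, 40.6, 54.5 and 49.5 CPM in siPIEZO1. At 9 h it was at 190, 186, 164 and 180 CPM in NT, 85.3, 111, 77.9 and 74.0 CPM in siNTC and 56.1, 59.4, 61.2 and 55.4 CPM in siPIEZO1. NT lay above siNTC without overlap at both times, and siNTC above siPIEZO1 without overlap at 9 h. The log2 fold change of siNTC against NT was -0.91 ± 0.14 at 3 h and -1.05 ± 0.10 at 9 h (adjusted p = 9.65e-06 and 4.5e-09). That of siPIEZO1 against siNTC was -0.54 ± 0.14 and -0.59 ± 0.10 (adjusted p = 0.0138 and 0.000113), the first lost without siNTC replicate 1 or 2 or siPIEZO1 replicate 2 (adjusted p 0.0594 to 0.0752).

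TPM1 was lower with siPIEZO1 than with siNTC by 0.46 at 3 h (log2 -0.46 ± 0.09, adjusted p = 0.000956). It was at 923, 700, 719 and 727 CPM against 1069, 1163, 987 and 1003 CPM. At 9 h the difference was -0.24 ± 0.08 (adjusted p = 0.0371) and was lost in 5 of 8 fits without one library (siNTC replicates 2, 3 and 4, siPIEZO1 replicates 1 and 3; adjusted p 0.0649 to 0.132). When only the 2 groups compared entered the fit, TAGLN and TPM1 were not called at 3 h (adjusted p = 0.129 and 0.0757), which left ACTA2. ACTB at 9 h (-0.26, adjusted p = 0.0784) was called lower only without siNTC replicate 4 (adjusted p = 0.0255).

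Against NT, siNTC changed 2 of the 10 genes at 3 h (7.53% of all genes) and 1 at 9 h (5.30% of all genes). Beside TAGLN this was MYH9 at 3 h, at 12.8, 6.39, 8.73 and 9.67 CPM against 4.53, 4.92, 4.00 and 8.89 CPM. The groups overlapped (0.75 ± 0.24, adjusted p = 0.0422), and the call was lost in 6 of 8 fits without one library (adjusted p 0.0639 to 0.184). NT vehicle replicate 4 at 3 h carried the highest MYH9 and, at 148 CPM against 77.5 to 97.9 CPM in the others, the highest VCL of its group. Without it VCL was called higher in siNTC (adjusted p = 0.00712). ACTA2 averaged 2.77 CPM in siNTC against 4.15 CPM in NT at 3 h, and 5.30 against 8.70 CPM at 9 h. Its groups overlapped at both times and it was not called.

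The 6 fibroblast and synovium markers were lower along the same groups as TAGLN, and as ACTA2 between siNTC and siPIEZO1. Their sum in vehicle at 3 h was 1923 to 1974 CPM in NT, 936 to 1048 CPM in siNTC and 422 to 571 CPM in siPIEZO1. The 9 h sums were 2372 to 2705, 1358 to 1870 and 666 to 806 CPM. None of the 6 was at 0 in any library. The chondrocyte sum was lower as well, at 32905 to 36430 CPM in NT, 27256 to 28135 CPM in siNTC and 15292 to 21660 CPM in siPIEZO1 at 3 h, and at 28755 to 38159, 24876 to 36728 and 18982 to 23574 CPM at 9 h, when NT and siNTC overlapped. The smooth muscle and pericyte sum ran in the opposite direction to ACTA2 and TAGLN, at 150.0 to 187 CPM in NT, 217 to 289 CPM in siNTC and 251 to 322 CPM in siPIEZO1 at 3 h, and at 161 to 199, 227 to 298 and 334 to 376 CPM at 9 h, with overlap only between siNTC and siPIEZO1 at 3 h. Most of that sum was CSPG4, while DES was at 0 in 19 of 72 libraries and MYH11 never exceeded 1.84 CPM. The part of these markers in the ACTA2, TAGLN and TPM1 results was not tested.

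**Figure D3:**
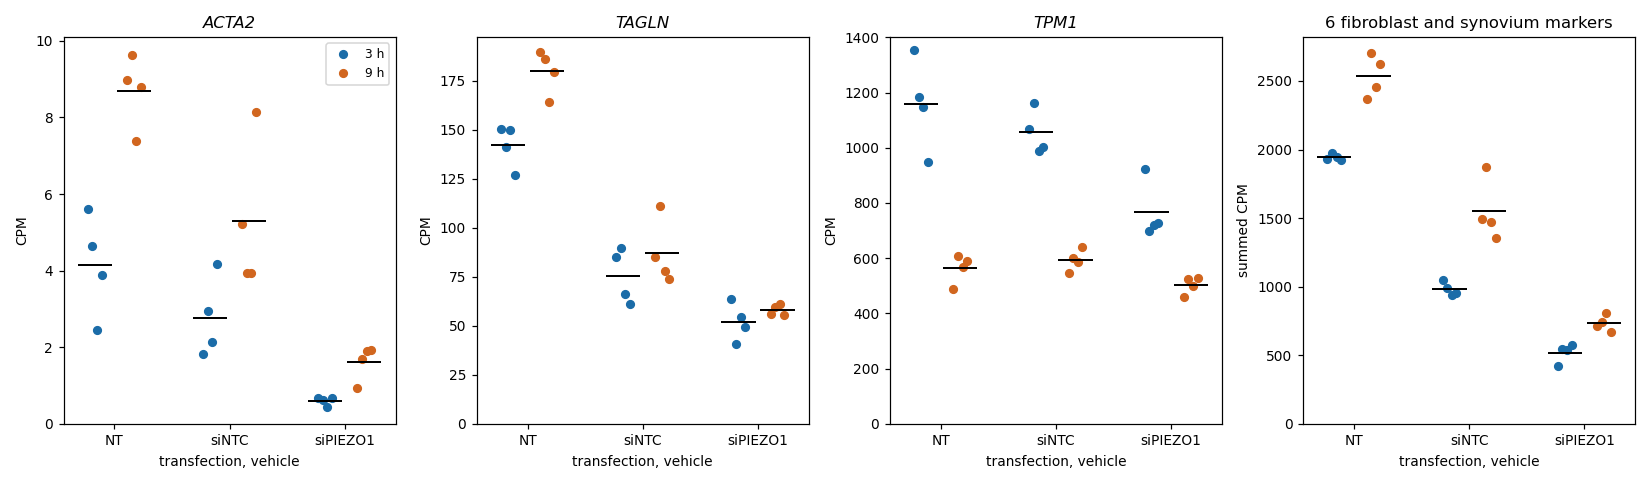
Levels of ACTA2, TAGLN and TPM1 (CPM) and the summed level of 6 fibroblast and synovium markers (summed CPM) in each vehicle library of the PIEZO1 experiment by transfection, with points for libraries at 3 h and 9 h and bars for group means of 4. TAGLN and the marker sum step down from NT to siNTC to siPIEZO1. Within each time, ACTA2 in siPIEZO1 (0.442 to 1.91 CPM over both times) lies below siNTC (1.83 to 8.13 CPM over both times).

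The wider list gave 10 higher and 5 lower of 57 for siNTC against NT at 3 h, led by the myosin light chain gene MYL9 (-1.38 ± 0.29), LIMK1 (1.23 ± 0.33) and the calponin gene CNN2 (-1.15 ± 0.14). At 9 h it gave 7 higher and 4 lower, led by SMTN (0.93 ± 0.23), ITGA5 (0.92 ± 0.20) and TPM2 (-0.69 ± 0.09). For siPIEZO1 against siNTC it gave 3 higher and 2 lower at 3 h and 8 higher and 5 lower at 9 h. WDR1, which speeds actin disassembly, was higher at both times (1.36 ± 0.39 and 2.03 ± 0.33), and the tropomyosin gene TPM2 was lower at both (-0.60 ± 0.12 and -0.70 ± 0.09). PDLIM7 (0.58 ± 0.15) at 3 h and ITGA5 (0.68 ± 0.20) at 9 h completed the leading genes. These 2 contrasts share the siNTC vehicle libraries.

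Compression to 80% raised RND1 and VCL in NT cells at 3 h, the 2 calls among the 10 (6.27% of all genes were called). RND1 was at 32.9, 29.3, 14.7 and 11.11 CPM against 5.50, 5.79, 7.58 and 5.05 CPM in vehicle. VCL was at 171, 149, 179 and 174 CPM against 86.0, 77.5, 97.9 and 148 CPM. Each compressed library exceeded each vehicle library in both genes, although the spread of RND1 under compression was wide. The log2 fold changes were 1.88 ± 0.30 for RND1 (adjusted p = 3.59e-05) and 0.72 ± 0.16 for VCL (adjusted p = 0.00311). MYH9, at 0.59 ± 0.24, was called only without NT vehicle replicate 4 (adjusted p = 0.0109). The smooth muscle and pericyte sum was lower in the compressed libraries (110 to 134 against 150.0 to 187 CPM), and its part was not tested.

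At 9 h in NT none of the 10 was called by edgeR (3.51% of all genes were), 3 had an unadjusted p under 0.05 and DESeq2 called 0. RND1 was then at 7.24, 5.82, 8.54 and 7.16 CPM against 5.80, 4.17, 3.70 and 3.40 CPM, 0.75 ± 0.28 higher (adjusted p = 0.139). VCL was at 110, 100.8, 116 and 102 CPM against 110, 119, 119 and 138 CPM (-0.18 ± 0.12, adjusted p = 0.476). The VCL effect of compression fell between 3 h and 9 h by 0.90 (log2 -0.90 ± 0.20, adjusted p = 0.00184), the 1 call among the 10 beside 9.21% of all genes. RND1 changed by -1.13 ± 0.42 (adjusted p = 0.0813), and passed in DESeq2 (adjusted p = 0.0337) and without NT compression replicate 3 or 4 at 3 h (adjusted p 0.0348 to 0.0452). At 9 h ACTB averaged 1009 CPM against 833 CPM in NT vehicle (log2 0.28), and ACTG1 8341 against 7341 CPM (log2 0.18). In both genes the compressed libraries lay above all vehicle libraries, and how many of all genes separated so was not counted. Without compression replicate 1 at 9 h, ACTG1 was called higher (log2 0.22) and ACTA2 lower (log2 -1.32, adjusted p = 0.039). That library held ACTA2 at 14.8 CPM against 3.07 to 3.85 CPM in the other 3. ACTG1 was also called without NT vehicle replicate 1 (adjusted p 0.0324 to 0.0456 over both).

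In siNTC cells compression called none of the 10 at 3 h by edgeR (0.911% of all genes), where 1 gene, VCL, had an unadjusted p under 0.05 and DESeq2 called 0. VCL was at 0.34 ± 0.16 (adjusted p = 0.402), with 159, 157, 168 and 181 CPM against 126, 138, 124 and 138 CPM, and passed when only these 2 groups were fitted (adjusted p = 0.0236). At 9 h 4 genes were called, all lower, beside 6.43% of all genes. ACTG1 was at 6052, 6076, 6258 and 5922 CPM against 7780, 8449, 7236 and 7007 CPM (-0.33 ± 0.06, adjusted p = 0.000817). ACTB was at 553, 665, 620 and 634 CPM against 918, 980, 781 and 703 CPM (-0.45 ± 0.10, adjusted p = 0.00379).

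VCL was at 89.9, 94.3, 74.0 and 77.0 CPM against 119, 133, 118 and 126 CPM (-0.56 ± 0.12, adjusted p = 0.00291), and TAGLN at -0.45 ± 0.10 (adjusted p = 0.00595). In these 4 called genes the compressed libraries were below all siNTC vehicle libraries, and how many of all genes separated so was not counted. TAGLN was not called with these 2 groups alone (adjusted p = 0.0579), and TPM1, at -0.22 ± 0.08, was called by DESeq2 only (adjusted p = 0.0391). The summed fibroblast and synovium markers overlapped between these groups (1246 to 1567 against 1358 to 1870 CPM). The smooth muscle and pericyte sum (349 to 456 against 227 to 298 CPM) and the leukocyte sum (31.8 to 51.7 against 8.04 to 24.3 CPM) were higher under compression without overlap. Over the 72 libraries of the experiment the leukocyte marker CD14 had a median of 25.2 CPM. PTPRC was at 0 in 22 of them and never exceeded 0.557 CPM. The part of these sums in the compression results was not tested. In NT cells at 9 h, ACTB and ACTG1 lay above all vehicle libraries under compression instead, and were not called. Whether compression acted differently in siNTC than in NT was not tested.

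In the libraries labelled siPIEZO1, compression called 0 of the 10 at 3 h by edgeR (0.600% of all genes), with 2 at an unadjusted p under 0.05 and 0 in DESeq2. At 9 h TAGLN and TPM1 were lower, 2 calls beside 2.18% of all genes. TAGLN was at 43.6, 37.5, 40.9 and 42.1 CPM against 56.1, 59.4, 61.2 and 55.4 CPM (-0.50 ± 0.10, adjusted p = 0.00269). TPM1 was at 420, 420, 414 and 411 CPM against 458, 524, 500 and 529 CPM (-0.27 ± 0.08, adjusted p = 0.0484). Both sets of libraries were apart, but the TPM1 call was lost in 7 of 8 fits without one library (adjusted p 0.0808 to 0.192) and with no filter on low counts (adjusted p = 0.0955).

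The interaction of siPIEZO1 and compression called none of the 10 by edgeR at 3 h (0% of all genes; 1 member at an unadjusted p under 0.05, 0 in DESeq2) or at 9 h (1.09%; 0 and 0). For VCL it was 0.06 ± 0.22 at 3 h and 0.28 ± 0.16 at 9 h, and for ACTB at 9 h 0.24 ± 0.14. ACTA2 at 3 h was at 1.60 ± 0.64 (adjusted p = 0.976), with replicate 3 of siPIEZO1 compression at 3.08 CPM and the other 3 at 0.627 to 0.662 CPM. With standard errors of this size, even the ACTA2 interaction, larger than its standard error, was not called. Interactions could therefore be present and missed. In the wider list 0 of 57 were called at either time.

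The wider list under compression in NT gave 9 higher and 2 lower of 57 at 3 h, led by RHOB (1.22 ± 0.20), ELK4 (0.89 ± 0.16) and PDLIM5 (0.76 ± 0.13). At 9 h it gave 3 higher and 4 lower, led by WDR1 (1.63 ± 0.33), PDLIM7 (0.63 ± 0.17) and ROCK2 (-0.49 ± 0.09), a kinase that activates myosin. The largest changes of the NT effect with time were in WDR1 (1.82 ± 0.54), ELK4 (-1.27 ± 0.21) and RHOB (-1.18 ± 0.27). In siNTC 1 gene was higher at 3 h (PDLIM5, 0.49 ± 0.13), and at 9 h 2 were higher and 6 lower, with WDR1 (1.68 ± 0.33), ARHGDIA (0.55 ± 0.17) and ELK4 (-0.46 ± 0.14) in the lead. In siPIEZO1 0 of 57 were called at 3 h, and at 9 h 3 were higher and 1 lower, led by WDR1 (1.15 ± 0.32), ACTN1 (0.75 ± 0.18) and ZYX (0.69 ± 0.18). WDR1 was higher at 9 h after compression in each of the 3 transfection states.

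Yoda1 gave no call among the 10 in any state or at any time by edgeR, and DESeq2 called 0 in each. Few genes of any kind were called in most of these contrasts: 0.409% of all genes in NT at 3 h, 0% in NT at 9 h, 5.40% and 0% in siNTC, and 0.262% and 2.54% in siPIEZO1. At an unadjusted p under 0.05 there were 5 and 3 genes in NT, 2 and 0 in siNTC, and 2 and 2 in siPIEZO1. RND1 in NT at 3 h was at 9.47, 8.59, 10.9 and 11.11 CPM, above all 4 vehicle libraries (5.05 to 7.58 CPM), with a log2 difference of 0.74 ± 0.29 (adjusted p = 0.276). It passed when only these 2 groups were fitted (adjusted p = 0.0411).

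VCL in NT at 3 h was at 0.52 ± 0.16 (adjusted p = 0.143) and MYH9 at 0.56 ± 0.24 (adjusted p = 0.301) with Yoda1. Without NT vehicle replicate 4 both were called (adjusted p = 0.00538 and 0.04). The effect of Yoda1 in NT at 9 h against 3 h was called in 0 of the 10 by edgeR (0.0990% of all genes), with 0 at an unadjusted p under 0.05 and 0 in DESeq2. The interaction of siPIEZO1 and Yoda1 gave 0 calls at 3 h (0.938% of all genes) and at 9 h (0.0269%), also 0 at an unadjusted p under 0.05 and 0 in DESeq2. In the wider list Yoda1 changed 0 of 57 genes in NT at either time. In siNTC at 3 h 1 was higher and 2 lower (ROCK1 -0.56 ± 0.17, CFL2 -0.49 ± 0.12, LIMK2 0.26 ± 0.07), and in siPIEZO1 at 9 h 1 was higher and 1 lower (ITGB1 0.22 ± 0.06, TMSB4X -0.30 ± 0.08).

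**Figure D4:**
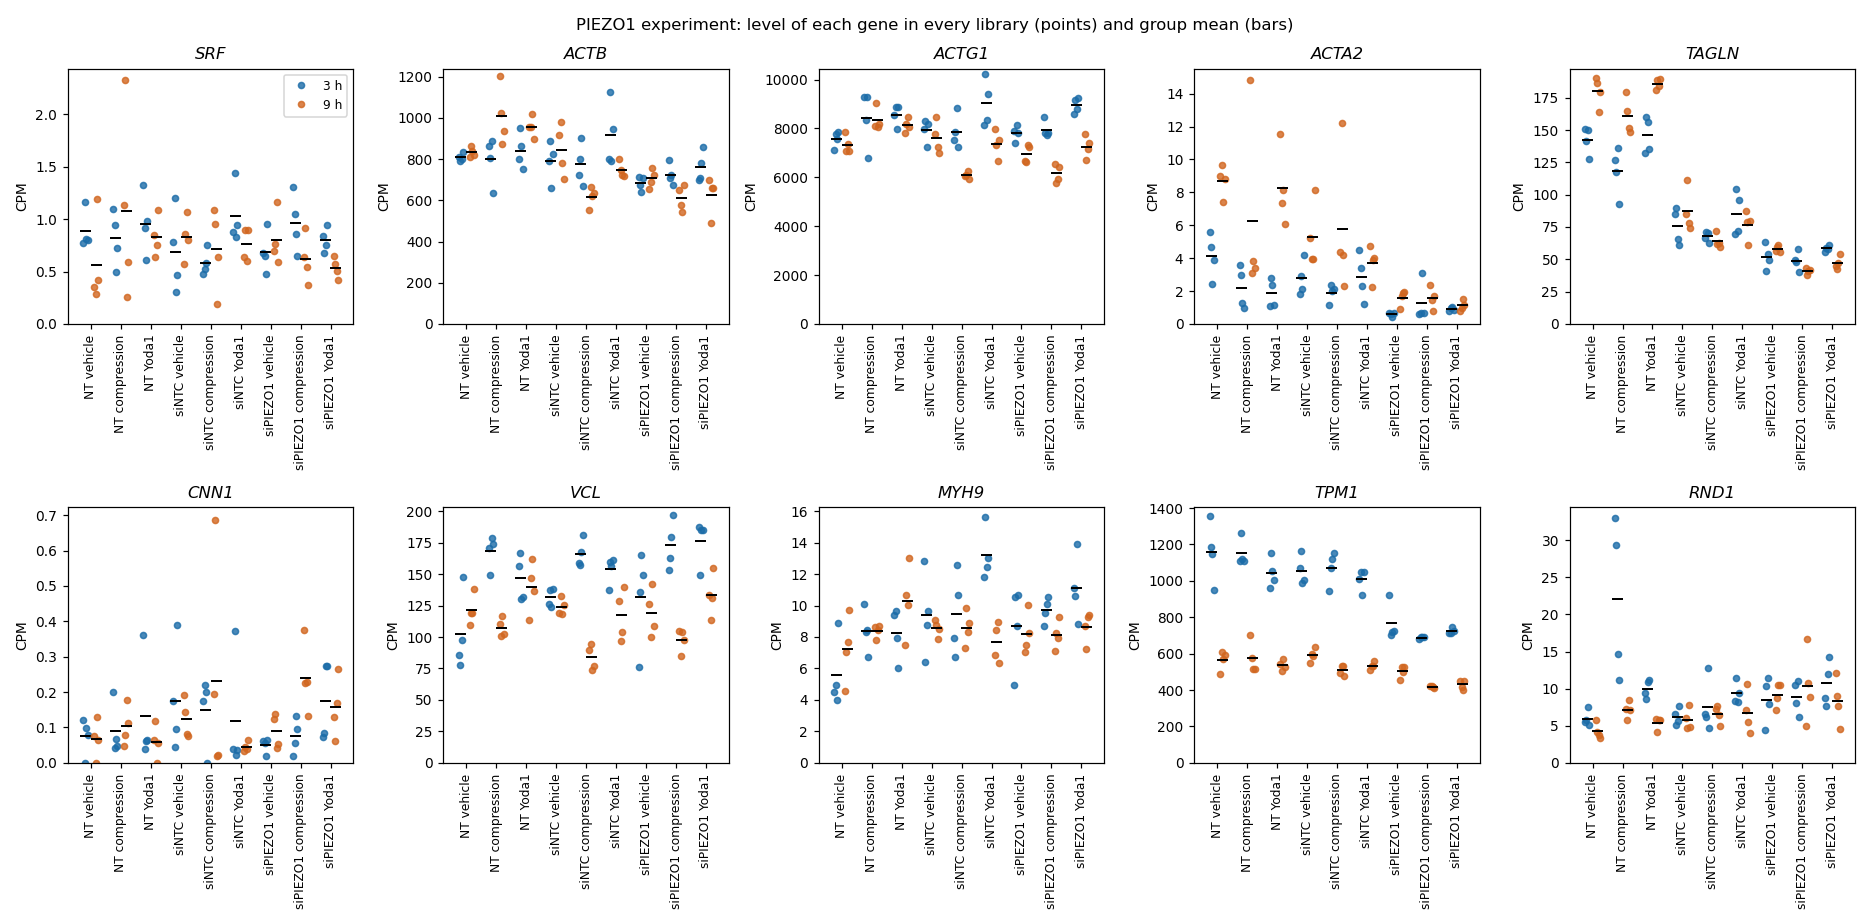
Level of each gene (CPM, scaled separately at 3 h and 9 h) in every library of the PIEZO1 experiment by transfection and stimulus, with points for libraries and bars for group means of 4. RND1 is highest in compressed NT cells at 3 h (11.11 to 32.9 CPM), TPM1 is lower at 9 h than at 3 h throughout, and SRF and CNN1 lie near or below 2.33 CPM.

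The controls changed between 3 h and 9 h as well, so effects were tested against the control of the same time. In DMSO 4 of the 10 genes differed, beside 22.2% of all genes. ACTA2 fell from 2.24, 3.45, 1.60 and 1.95 CPM to 0.945, 1.296, 0.801 and 1.33 CPM (-1.11 ± 0.31, adjusted p = 0.00632), lost without DMSO 3 h replicate 2 (-0.86, adjusted p = 0.0585). VCL (0.23 ± 0.06, adjusted p = 0.00589) was lost without DMSO 3 h replicate 4 (adjusted p = 0.0624). TPM1 (0.16 ± 0.05) and MYH9 (-0.22 ± 0.08) were each lost in 6 of 8 fits without one library (adjusted p 0.0508 to 0.1 and 0.0614 to 0.198). TAGLN was called without DMSO 3 h replicate 2 (adjusted p = 0.0294) and SRF without DMSO 3 h replicate 4 (adjusted p = 0.0167).

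In NT vehicle TPM1 was the single call (16.1% of all genes), from 1356, 1185, 1146 and 950 CPM at 3 h to 488, 607, 569 and 590 CPM at 9 h (-1.05 ± 0.08, adjusted p = 1.12e-16). ACTA2 was at 8.97, 9.64, 7.40 and 8.78 CPM at 9 h against 5.62, 4.65, 2.45 and 3.89 CPM at 3 h, without overlap but not called (1.06 ± 0.43, adjusted p = 0.0903, and 0.00228 with only these groups in the fit). TAGLN, at 0.33 ± 0.12 (adjusted p = 0.0566), passed in DESeq2 (adjusted p = 0.035). Without NT vehicle replicate 4 at 3 h VCL and MYH9 were called (adjusted p = 0.0131 and 0.0184), and without replicate 3 at 9 h SRF and TAGLN (adjusted p = 0.0498 and 0.0442). In the wider list the time difference called 9 higher and 10 lower of 55 in DMSO, led by MYLK (0.69 ± 0.24), RND3 (0.65 ± 0.08) and ACTN4 (-0.49 ± 0.07). In NT vehicle it called 4 higher and 10 lower of 57, among them SMTN (-1.54 ± 0.26) and CNN2 (-1.16 ± 0.13).

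Over the 12 groups of the TRPV4 experiment, SRF, ACTB, ACTG1, TAGLN, VCL, MYH9, TPM1 and the barely detected CNN1 had their highest group mean in GSK101 at 9 h, and ACTA2 in GSK101 at 3 h. The ratio of highest to lowest group mean was 9.06 for VCL, 3.74 for ACTG1, 3.41 for TAGLN, 2.50 for ACTB, 2.28 for SRF, 2.24 for TPM1 and 1.86 for MYH9. RND1 spanned 431.5-fold, from 10.2 ± 2.14 CPM (SD, n = 4) in DMSO at 3 h to 4419 ± 109 CPM in IL-1 at 9 h. TAGLN and TPM1 had their lowest means in IL-1 at 9 h (8.95 ± 0.360 and 57.4 ± 2.59 CPM).

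Over the 18 groups of the PIEZO1 experiment the same ratio was 1.49 for ACTG1, 1.65 for ACTB, 2.00 for SRF, 2.11 for VCL, 2.37 for MYH9, 2.78 for TPM1, 4.53 for TAGLN and 5.16 for RND1. ACTA2 ranged 14.4-fold, from 0.603 ± 0.112 CPM in siPIEZO1 vehicle at 3 h to 8.70 ± 0.941 CPM in NT vehicle at 9 h. TAGLN was highest in NT Yoda1 at 9 h (186 ± 4.01 CPM), next to NT vehicle at 9 h (180 ± 11.4 CPM), a pair within the latter's spread. Its lowest mean was in siPIEZO1 compression at 9 h (41.0 ± 2.59 CPM).

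**Figure D5:**
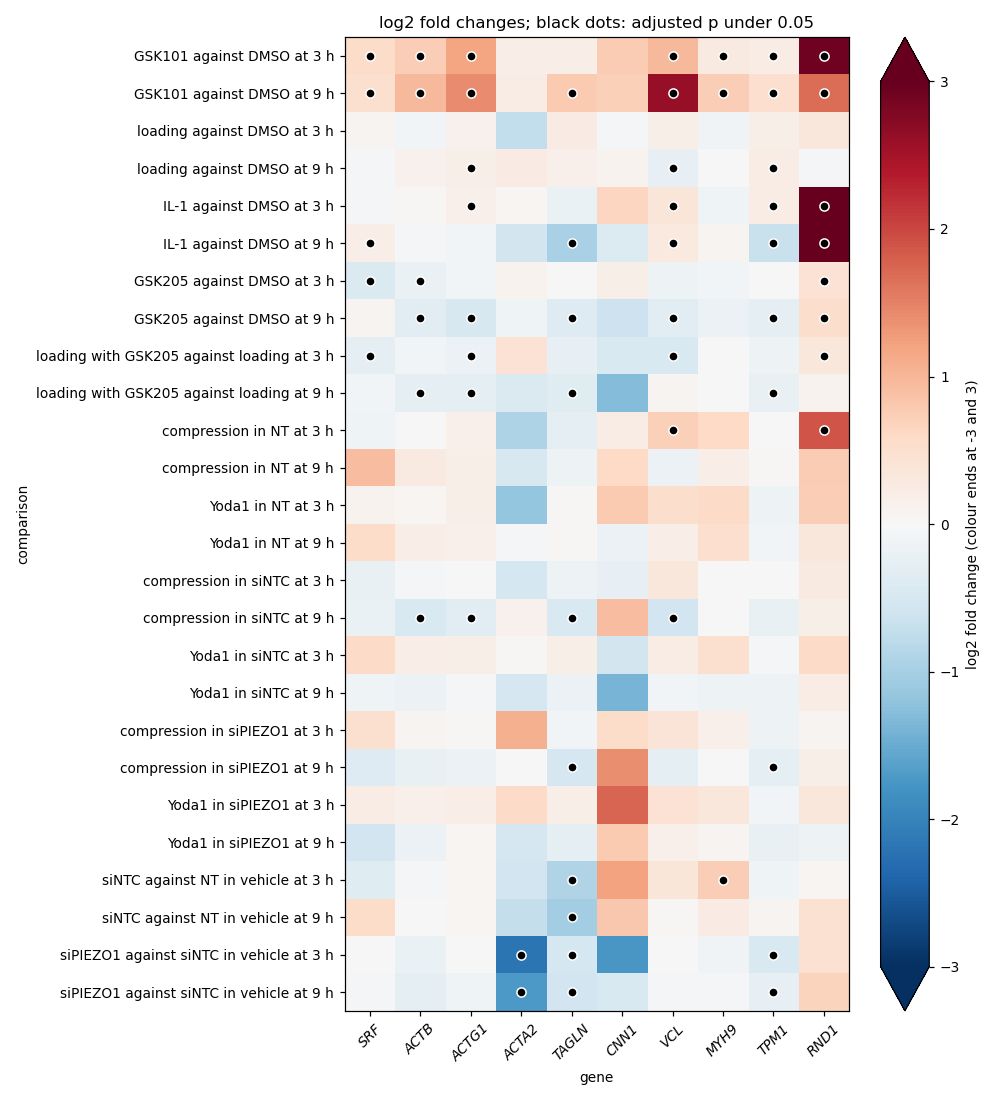
Log2 fold change (colour, ending at -3 and 3) of the 10 genes (columns) in 26 comparisons of groups at one time (rows), with black dots for adjusted p under 0.05 by edgeR. The GSK101 rows hold the most dots (7 at 3 h and 8 at 9 h, where 40% and 62.3% of all genes were called). The Yoda1 rows hold none, where 0% to 5.40% of all genes were called.

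The pattern of each gene over the 30 group means (mean log2 CPM, centred within experiment and time) was set beside those of 12534 genes tested throughout, as a description. Groups share control libraries, depth and kit, so these correlations carry no test. VCL was most like ABL2 (r = 0.97), LSG1 (0.94) and EPHA2 (0.94), and RND1 most like CXCL2 (0.99), STX11 (0.98) and NFKBIZ (0.98). A few extreme groups weigh heavily in such values. RND1 averaged 1496 and 4419 CPM in IL-1 at 3 h and 9 h, against 77.4 CPM in GSK101 at 3 h. VCL averaged 312 CPM in GSK101 at 9 h against 51.1 CPM in DMSO. TAGLN was most like TPM2 (0.94), SLC2A5 (0.94) and SRPX2 (0.92), and TPM1 most like MXRA7 (0.91), CAVIN1 (0.84) and S100A11 (0.82).

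ACTG1 was nearest to ABHD5 (0.89), ODC1 (0.89) and DGKI (0.88), and ACTB to TUBA1B (0.88), TENT5A (0.83) and DGKI (0.82). ACTA2 was nearest to IBSP (0.87), TSPAN7 (0.87) and the collagen gene COL1A2 (0.87), which is one of the 6 fibroblast and synovium markers. SRF was nearest to MTF1 (0.84), MAP1A (0.80) and PLK3 (0.79), and MYH9 to RRP12 (0.83), CDK2 (0.80) and CFL1 (0.78). CNN1, at its few counts, reached 0.71 with IRGC, 0.69 with TAGAP and 0.67 with AKIRIN2.

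Among themselves, ACTB and ACTG1 followed each other over the 30 groups (r = 0.92), as did ACTG1 and VCL (0.88), while SRF and RND1 did so little (0.23). Pair values also varied by experiment, a difference that was not tested. VCL and ACTB had r = 0.90 over the 12 TRPV4 groups and 0.25 over the 18 PIEZO1 groups, and SRF and VCL had 0.74 and 0.06. ACTA2 and TAGLN had 0.45 and 0.83. SRF had only 9 to 117 counts per library in the PIEZO1 experiment. VCL group means in the TRPV4 experiment ran from 34.4 CPM to 312 CPM, the latter in GSK101 at 9 h.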

How the data were processed

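RNA-seq counts per gene were measured in 120 libraries. Per the submitters' processing notes the tools were Trim Galore, STAR and HTSeq on Sscrofa11.1, versions not given in the sources used here. Per the labels' protocols, TRPV4 libraries were ribosome-depleted and PIEZO1 libraries used a low-input SMARTer kit. The authors deposited raw counts. The table held 32388 lines, of which 481 repeated a gene.

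Counts were fitted with edgeR 4.0.16 (R 4.3.3), separately by experiment and time: TMM scaling, filterByExpr (minimum count 10), a term per group, glmQLFTest, Benjamini-Hochberg within each of 39 contrasts, called under 0.05. Both times entered one model for tests between 9 h and 3 h. CPM use the TMM-scaled total. The SE is the log2 fold change divided by the root of F. The edgeR steps were also run on counts simulated with the fitted spread of the TRPV4 experiment at 3 h, for GSK101 against DMSO only. That run did not cover the PIEZO1 experiment, interactions or tests between times, and its planted changes were larger than many called here. Positions are RefSeq genes on Sscrofa11.1.

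All 10 genes were tested in every comparison, and values are given mainly for those called or near the threshold. A gene not named in a comparison was not called there by edgeR. From the pathway list the 3 called genes with the largest change are named, except a gene of that list that is counted but not reported here by name, and for each of the 10 genes the 3 most alike. The members and lists were chosen with earlier results of these data known.

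Alternatives were DESeq2 1.42.0, RLE scaling, protein-coding genes only, no filter, a replicate block, only the groups compared in the fit, and leaving out each library. No transcript lengths were used, so levels are not compared between genes. Small RNA is the share of counts in snRNA, snoRNA, miRNA and like gene types.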

Additional observations from a re-analysis of the deposited data

Results flagged for a closer look

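Of 300 groups of 4 CPM values (10 genes in 30 groups), 22 had a library far from the other 3, by a gap past Dixon's critical value for 4 values. Chance gives about 5% of groups. ACTA2 was at 14.8 CPM in NT compression at 9 h replicate 1 and at 3.08 CPM in siPIEZO1 compression at 3 h replicate 3. ACTB was at 1465 CPM in DMSO at 9 h replicate 1. ACTG1 was at 9038 CPM in NT compression at 9 h replicate 2, 8479 CPM in siPIEZO1 compression at 3 h replicate 1 and 1324 CPM in DMSO at 3 h replicate 4.

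CNN1, on 0 to 22 counts, was at 0.199 CPM in NT compression at 3 h replicate 1, 0.363 CPM in NT Yoda1 at 3 h replicate 1, 0.374 CPM in siNTC Yoda1 at 3 h replicate 2, 0.0201 CPM in siPIEZO1 vehicle at 3 h replicate 3 and 0 CPM in loading with GSK205 at 9 h replicate 2. RND1 was at 4.18 CPM in NT Yoda1 at 9 h replicate 2 and 43.7 CPM in GSK101 at 9 h replicate 1. SRF was at 1.17 and 1.20 CPM in NT vehicle at 3 h replicate 2 and at 9 h replicate 3, 22.6 CPM in DMSO at 9 h replicate 3 and 32.9 CPM in IL-1 at 9 h replicate 4.

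TPM1 was at 1265 CPM in NT compression at 3 h replicate 2, 923 CPM in siPIEZO1 vehicle at 3 h replicate 1, 85.8 CPM in DMSO at 3 h replicate 2 and 132 CPM in GSK101 at 9 h replicate 1. VCL was at 149 CPM in siPIEZO1 Yoda1 at 3 h replicate 2.

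Effects that differed between 9 h and 3 h by edgeR's test of the difference itself were, for GSK101, ACTB (log2 0.28), ACTG1 (0.29), TAGLN (0.64), VCL (1.69), MYH9 (0.51), TPM1 (0.32) and RND1 (-1.18). For IL-1 they were ACTG1 (-0.19), TAGLN (-0.73), TPM1 (-0.86) and RND1 (1.34), and VCL differed for loading (-0.39) and for compression in NT (-0.90). The effect of loading on VCL at 9 h differed with GSK205 (0.39).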

How the results depend on the processing

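Of 390 values (10 genes in 39 comparisons) 80 were called, and none that was called in either fit changed direction under any alternative. Values called in neither fit changed sign 284 times and were not read for direction. With only the groups compared in the fit, 354 of the 390 values passed the filter on low counts, including all 80 called ones. Calls lost and gained among the 80 were 3 and 1 with RLE scaling, 2 and 7 with protein-coding genes, 5 and 3 with no filter, 8 and 6 with only the groups compared, 2 and 5 with DESeq2. With the replicate block 2 were lost (ACTB for GSK205 at 3 h, adjusted p = 0.0585, and RND1 for loading with GSK205 against loading at 3 h, 0.0589) and 2 gained (ACTG1 for compression in NT at 9 h, 0.0478, and TAGLN for NT vehicle over time, 0.0479). Libraries share only a replicate number: same-numbered libraries deviated together with a mean r of -0.00156 to 0.0322 by experiment and time, single pairs from -0.217 to 0.317. The block moved the count of all genes called from 653 to 1043 for compression in NT at 9 h, 372 to 230 for the loading and GSK205 interaction at 3 h, 5 to 88 for the siPIEZO1 and Yoda1 interaction at 9 h and 0 to 3 for Yoda1 in NT at 9 h.

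Counts of called genes that moved by over 1.5 times were as follows. With no filter, loading at 3 h had 1, the loading and GSK205 interaction at 9 h 2 and compression in siPIEZO1 at 9 h 1. With protein-coding genes, GSK205 at 3 h had 5 and NT vehicle over time 2. With the replicate block, compression in NT at 9 h had 1 and NT vehicle over time 2. With only the groups compared, Yoda1 in NT at 3 h had 1, compression in siNTC at 3 h 1, siNTC against NT at 3 h 1, siPIEZO1 against siNTC at 3 h 1, NT vehicle over time 3 and the compression effect in NT over time 2. With DESeq2 the last 2 had 2 each.

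Leaving out one library in turn, the count ran from 0 to 3 for loading at 3 h, 1 to 5 and 2 to 4 for loading with GSK205 against loading at 3 h and 9 h, 0 to 1 and 1 to 2 for their interaction, 0 to 2 for compression in NT at 9 h and for Yoda1 in NT at 3 h, and 1 to 2 for compression in siPIEZO1 at 9 h. It ran from 1 to 3 for siNTC against NT at 3 h and NT vehicle over time, 2 to 4 for DMSO over time and 1 to 2 for the compression effect in NT over time. In all, 21 of the 80 calls were lost without at least one library. No scaling moved the median of all genes by over 0.1.

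Counts of all genes called were less stable in the PIEZO1 experiment. From edgeR to DESeq2 they went from 75 to 230 (Yoda1 in NT at 3 h), 167 to 391 and 1196 to 1911 (compression in siNTC at 3 h and 9 h), 989 to 1570 (Yoda1 in siNTC at 3 h), 110 to 275 and 405 to 694 (compression in siPIEZO1), 48 to 146 and 472 to 856 (Yoda1 in siPIEZO1), 653 to 1211 (compression in NT at 9 h), 0 to 1 and 202 to 491 (siPIEZO1 and compression interaction), 172 to 492 (siPIEZO1 and Yoda1 interaction at 3 h, whose 9 h count of 5 grew 20.2-fold), 0 to 16 and 0 to 2 (Yoda1 at 9 h in NT and siNTC) and 20 to 41 (Yoda1 effect over time). In the TRPV4 experiment they went from 678 to 1173 (loading with GSK205 against loading at 9 h) and from 372 to 666 and 767 to 1155 (interaction at 3 h and 9 h). With only the groups compared they were 210 for Yoda1 in NT at 3 h, 309 and 589 for compression in siNTC, 21 for Yoda1 in siNTC at 3 h, 2 for compression in siPIEZO1 at 3 h, 7 and 2 for Yoda1 in siPIEZO1, 244 and 1313 for siPIEZO1 against siNTC, 3 and 0 for the siPIEZO1 and Yoda1 interaction, 44 for siPIEZO1 and compression at 9 h, 419 for compression in NT at 9 h, 9 for the Yoda1 effect over time and 1021 for loading at 3 h. The siPIEZO1 and Yoda1 interaction at 9 h had 2 with protein-coding genes and 16 with no filter, and Yoda1 in NT at 9 h had 1 with protein-coding genes. For the loading and GSK205 interaction at 3 h, 148 of 372 calls were higher, against 157 of 288 with RLE scaling and 177 of 308 with protein-coding genes. CNN1 and, in the PIEZO1 experiment, SRF and ACTA2 had too few counts for modest changes to be seen.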
